A study of Mus musculus with 8 samples.

Results

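The FOXO transcription factors were followed at the RNA level in MEFs, the fibroblasts grown from mouse embryos. The members were taken by gene name: Foxo1, Foxo3, Foxo4 and Foxo6, which are 4 of the 49492 rows of the expression table. Of these, 3 passed the filter on low values and were tested, and Foxo6 did not pass. The table held polyA RNA-seq values from 8 libraries in 4 groups with 2 replicates each: Pontin WT and Pontin RA MEFs, each in normal medium and in glucose starvation medium. Pontin is the product of Ruvbl1 and an ATPase found in chromatin remodellers such as the TIP60 complex. By the methods of the study, all groups derived from Pontin f/f MEFs, stably expressed Flag-tagged Pontin from a lentiviral vector and lost the endogenous gene through Cre virus. In RA, a pair of arginines of Pontin that CARM1 methylates was replaced by alanine. The methods also give dialyzed fetal bovine serum for starvation medium and name no dialysis for normal medium. Lack of glucose and this change of serum cannot be told apart. The genotypes were 2 stable cell lines, so the line and the form of Pontin cannot be told apart, and no source used here states the hours of starvation for these libraries. The study says in general terms that its experiments were repeated independently, but not whether the replicates of these libraries were separate cultures. P-values therefore measure only the spread between these libraries, which may be technical.

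FOXO proteins are forkhead factors that bind DNA as monomers and mostly activate transcription. When insulin or growth factors are present, AKT and SGK kinases phosphorylate them, 14-3-3 proteins bind them, and they leave the nucleus. When nutrients are scarce they return to the nucleus and switch on genes for autophagy, stress resistance, metabolism and cell cycle arrest. Much of this control acts on the protein, so an RNA level says how much message was present and nothing of where the protein was or how active it was. Foxo1, Foxo3 and Foxo4 are widely expressed, and Foxo6 is known mainly from the brain.

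The 4 genes share the forkhead DNA-binding domain, and their most alike stretches lie in it. The following sequences are shown because they bear on whether reads of one FOXO gene could be counted for another. They are the longest runs found in both members of a pair or in all members (GENCODE M21 transcripts on GRCm38, the longest transcript of each gene). Capitals mark the longest run common to all 4 genes, and shorter stretches that all 4 share are left in lower case.
Foxo1 and Foxo3: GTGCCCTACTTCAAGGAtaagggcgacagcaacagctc
Foxo1 and Foxo6: cGTGCCCTACTTCAAGGAtaa
Foxo3 and Foxo4: ggcaagagctcttggtggat
Foxo4 and Foxo6: tggtggatgctgaaccccga
All members: GTGCCCTACTTCAAGGA
The longest run was 38 bases, shared by Foxo1 and Foxo3, and the run common to all 4 genes was 17 bases. No window of 50 bases was found in more than 1 member, out of 8616 windows in Foxo1, 6799 in Foxo3, 3113 in Foxo4 and 2566 in Foxo6. In windows of 25 bases, 14 windows of Foxo1 and 14 of Foxo3 were shared, and none of Foxo4 or Foxo6.

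On GRCm38, Foxo1 lies on chromosome 3 from 52268336 to 52353221 on the plus strand, and Foxo3 on chromosome 10 from 42181841 to 42276755 on the minus strand. Foxo4 lies on chromosome X from 101254528 to 101260873 (plus strand) and Foxo6 on chromosome 4 from 120267079 to 120287349 (minus strand). The reads were mapped to the older build mm9, so these positions place the genes only. Exons of Foxo1 overlap those of Gm20402 on the opposite strand. The library kit does not mark strand, so reads from the overlap cannot be assigned to one of the pair. Gm20402 itself stood between 0.457 and 0.967, well below Foxo1 in every library. Foxo3, Foxo4 and Foxo6 had no exon overlap with another annotated gene.

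The stretches just before the annotated starts of Foxo1 and Foxo3 are shown because these members moved in opposite directions in the comparisons that follow. They come from RefSeq (GRCm38.p6), read 5′ to 3′ on the strand of the gene, chr3:52268087-52268335 (plus) for Foxo1 and chr10:42276756-42276945 (minus) for Foxo3. Windows for Foxo4 and Foxo6 were not used here.
Foxo1: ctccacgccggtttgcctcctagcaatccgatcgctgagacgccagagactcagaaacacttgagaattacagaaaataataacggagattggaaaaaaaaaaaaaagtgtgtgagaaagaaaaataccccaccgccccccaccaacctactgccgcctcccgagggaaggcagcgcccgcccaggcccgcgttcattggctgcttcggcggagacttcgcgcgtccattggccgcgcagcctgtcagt
Foxo3: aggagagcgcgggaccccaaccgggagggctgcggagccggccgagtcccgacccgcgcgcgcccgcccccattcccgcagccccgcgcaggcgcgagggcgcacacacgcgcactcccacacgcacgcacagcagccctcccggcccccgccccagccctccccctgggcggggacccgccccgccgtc
Bases inside the annotated gene were left out, so the stretches were 249 bases for Foxo1 and 190 for Foxo3. The Foxo3 stretch was 81.6% G or C and the Foxo1 stretch 55.8%, beside a median of 52.4% over the 32851 RefSeq windows of 250 bases. Those windows were not cut in this way, so the lengths compared are unlike. The core of the FOXO binding motif, GTAAACA or its reverse complement TGTTTAC, was in neither stretch, and 3.17% of all windows held it on either strand.

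Values are CPM of the scaled library size, that is, reads of a gene relative to a library total that the authors adjusted per sample. Between 43205841 and 56363034 reads were recovered per library, and 3 reads, taken as the smallest amount told from 0, were worth 0.0548 to 0.069. The filter kept the 16232 genes that reached a value of 1 in 2 or more libraries. Differences are on the log2(value + 1) scale, which understates changes of low genes, and come from limma with Benjamini-Hochberg (BH) adjustment over all 16232 genes. A call means an adjusted p under 0.05. With 2 libraries a group an exact permutation test cannot go below 0.333, so no gene could pass it alone. The culture carried fibroblast markers, with all 8 listed genes expressed and a summed value from 9905 to 10232 in normal medium. Under starvation the sum was 5306 to 5399 in WT and 7007 to 7025 in RA. Of the 8 markers, 7 fell in WT and 5 in RA, beside 39.2% and 33.7% of all tested genes. Fn1 went from 2390 and 2324 to 2493 and 2332 in WT, not called. In RA it rose from 2375 and 2366 to 3161 and 3185. Vim was lower in starved RA (1842 and 1826) than in starved WT (2098 and 2197), and the other 7 were higher. Summed markers of immune cells lay between 2.48 and 4.95 with Cd3e at 0, of epithelial cells between 1.43 and 3.21, and of endothelial cells between 1.90 and 6.60. The immune sum was 4.74 to 4.95 in starved WT and at most 3.26 elsewhere, and the endothelial sum was 5.45 or more in the starved libraries and at most 3.09 in normal medium. The immune rise was that of Cd68, at 4.51 and 4.13 in starved WT and 1.93 to 2.67 elsewhere. The endothelial rise was that of Kdr, from 1.63 to 2.76 in normal medium to 5.21 to 6.54 under starvation. Pecam1 and Cdh5 were at most 0.478 and 0.348 in any library and were lower in starved WT than in the WT controls. The epithelial sum was 2.68 to 3.21 in starved RA and at most 2.12 elsewhere. Cdh1 stood at 1.18 and 1.16 in starved RA and at most 0.475 elsewhere. The part of such cells in the results was not tested. In bulk RNA, fewer cells with a message and less message per cell cannot be told apart.

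Ruvbl1, the altered gene, was measured first. It stood at 28.4 and 27.6 in the WT controls (normal medium), 27.9 and 28.4 in starved WT, 36.8 and 32.0 in the RA controls, and 45.0 and 42.9 in starved RA. The RA libraries were thus above every WT library, and RA minus WT was 0.29 in normal medium and 0.62 under starvation, both called. The call in normal medium was lost without either WT control (0.31 and 0.27) or without the first RA control (0.19), and at the same value with no filter (adjusted p = 0.0744) or without the eBayes trend (0.0825). The table does not separate the 2 forms of Pontin, so these values do not check the labels.

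Among the 3 tested members, Foxo3 had the largest response to starvation on the log2(value + 1) scale, in WT. Its protein is the FOXO factor most often tied to autophagy in starved muscle. In WT it stood at 17.5 and 17.0 in normal medium and at 38.5 and 34.4 under starvation, so both starved libraries were well above the controls. This is a 2.11-fold rise of the mean and a log2 difference of 1.04 ± 0.076 (SE, n = 2 per group, limma adjusted p = 1.39e-09). In RA it stood at 18.6 and 16.2 in normal medium and at 20.7 and 21.2 under starvation. The groups again did not overlap, but the rise was 1.204-fold, with a difference of 0.26 ± 0.076 (adjusted p = 0.00669). That call rested on 1 library: without the second RA replicate in normal medium the difference was 0.16 (adjusted p = 0.0962).

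The test of the difference between the responses, the interaction, gave -0.78 ± 0.11 for Foxo3 (RA response minus WT response, adjusted p = 1.62e-05). In normal medium the genotypes overlapped, and RA minus WT was 0.0090 with a 95% interval from -0.15 to 0.17. Under starvation both RA libraries were below both WT libraries, at a mean 0.575 times that of WT and a difference of -0.77 ± 0.076 (adjusted p = 1.76e-07). Only 2.88% of the tested genes had a lower difference there.

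**Figure D1:**
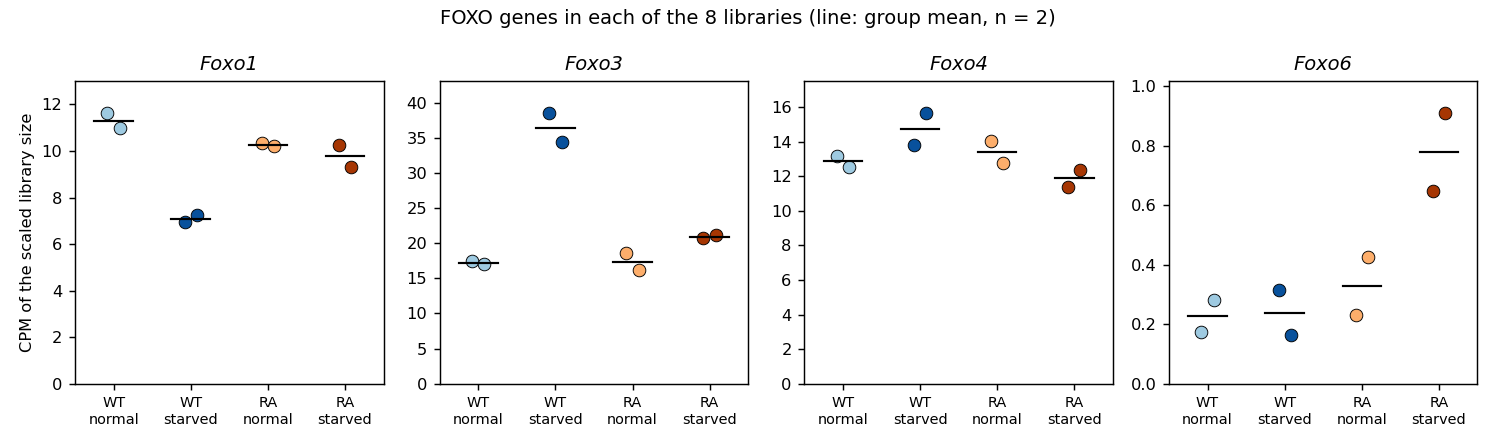
Values of Foxo1, Foxo3, Foxo4 and Foxo6 (vertical axis, CPM of the scaled library size, each panel with its own scale from 0) in the 4 groups (horizontal axis), with 1 point per library and a line at the group mean. Starved WT stands apart for Foxo1 (6.94 and 7.23, the lowest) and Foxo3 (38.5 and 34.4, the highest), and starved RA for Foxo6 (0.646 and 0.909).

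Foxo1, known for its part in insulin responses of liver, fat and vessels, moved the other way. In WT it stood at 11.6 and 11.0 in normal medium and at 6.94 and 7.23 under starvation, with no overlap. The fall was to 0.627 times the control mean, a difference of -0.61 ± 0.092 (SE, n = 2 per group, limma adjusted p = 1.28e-05). In RA it stood at 10.3 and 10.2 in normal medium and at 10.3 and 9.29 under starvation, and these groups overlapped. The RA difference was -0.066 with a 95% interval from -0.26 to 0.13 (adjusted p = 0.544), so a fall as large as that in WT lay outside the interval.

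The responses of Foxo1 differed between the genotypes by 0.54 ± 0.13 (adjusted p = 0.00248). In normal medium RA minus WT was -0.13 with an interval from -0.32 to 0.068, and did not pass, although both RA libraries lay below both WT libraries. Under starvation both RA libraries were above both WT libraries, 1.38-fold in the mean, with a difference of 0.41 ± 0.092 (adjusted p = 9.14e-04). Foxo1 and Foxo3 thus differed between the genotypes in opposite directions under starvation.

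Foxo4, a member with a gene on the X chromosome, moved little. In WT it stood at 13.2 and 12.6 in normal medium and at 13.8 and 15.6 under starvation, and in RA at 14.02 and 12.8 in normal medium and at 11.4 and 12.4 under starvation. Neither response passed the test: the difference was 0.18 in WT (interval -0.0074 to 0.37, adjusted p = 0.0728) and -0.16 in RA (interval -0.35 to 0.028, adjusted p = 0.12). The starved RA libraries were below the starved WT libraries, with a difference of -0.29 ± 0.089 (adjusted p = 0.00995) and a mean 0.807 times that of WT. The responses differed by -0.34 ± 0.13 (adjusted p = 0.0324). Both calls depended on single libraries: without the second starved WT replicate RA minus WT was -0.20 (adjusted p = 0.116) and without the first starved RA replicate it was -0.23 (adjusted p = 0.0897). The call for the difference of the responses was lost without any 1 of 4 libraries, with adjusted p-values up to 0.139 over all alternatives. In normal medium RA minus WT was 0.054 with an interval from -0.13 to 0.24.

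Foxo6 was near the limit of detection. Its counts were 8 and 14 reads in the WT controls, 15 and 9 in starved WT, 10 and 22 in the RA controls, and 33 and 44 in starved RA. As values these are 0.174 and 0.282, 0.314 and 0.164, 0.230 and 0.426, and 0.646 and 0.909. The starved RA libraries were above all others, and the other groups overlapped. In WT the starvation difference was 0.012 by limma without the filter (adjusted p = 1). Without the filter, starved RA minus starved WT was 0.52 ± 0.11 on the log2(value + 1) scale (limma adjusted p = 0.00713) and 1.70 on the log2 scale by edgeR on the recovered reads (adjusted p = 0.00269). The starvation difference in RA was 0.42 by limma (adjusted p = 0.0169) and 1.22 by edgeR (adjusted p = 0.0337), and the difference of the responses passed neither test (adjusted p = 0.102 and 0.307). The edgeR test was chosen after the data were seen. It was not run on halved reads without the filter. Small counts were mostly even, as when both mates are counted, so these reads may stand for fewer fragments. Foxo6os, the transcript antisense to Foxo6, was at 0 reads in every library, which allows up to 3 reads in each.

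How many genes passed in each comparison sets the scale for these calls. In the WT response 78.6% of the tested genes were called (39.3% higher and 39.2% lower), and 2 of the 3 tested members were. In the RA response 68.7% were called (35.0% higher and 33.7% lower), and 1 of 3 members was. For RA minus WT under starvation 62.9% were called (30.8% higher and 32.1% lower), and for the interaction 50.6% (24.5% higher and 26.1% lower), with all 3 members called in both. For RA minus WT in normal medium 9.63% of all genes were called (6.68% higher and 2.95% lower) and 0 of the 3 members by limma, with 0 at an unadjusted p under 0.05 and 0 by edgeR and by DESeq2. A call under starvation was therefore the common outcome for a gene, and the members are described by their sizes and directions. The comparisons share libraries: each starved or control group enters 2 of the pairwise comparisons, and the interaction uses all 4 groups.

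**Figure D2:**
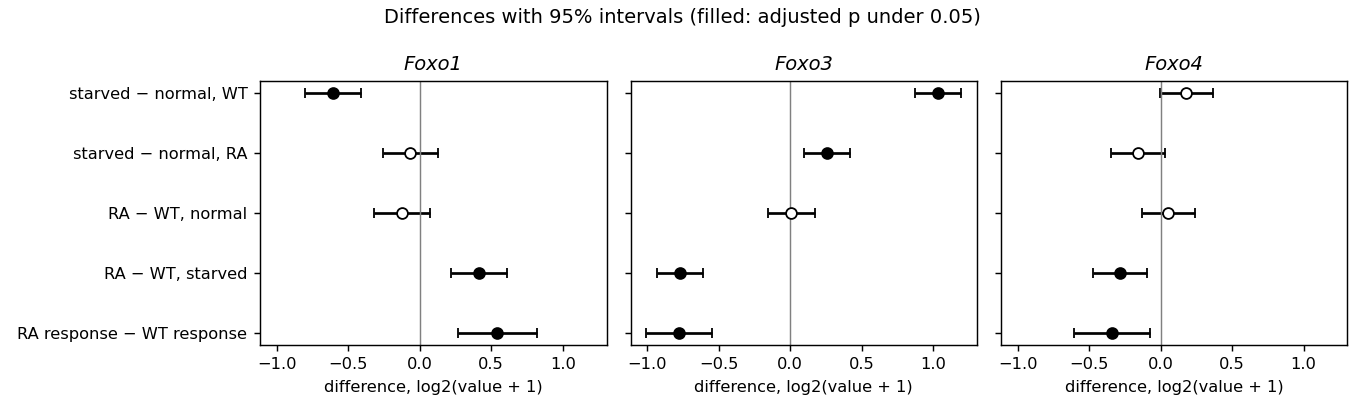
Differences of Foxo1, Foxo3 and Foxo4 on the log2(value + 1) scale (horizontal axis) for the 5 comparisons (vertical axis), with 95% intervals from limma and filled points where the adjusted p was under 0.05. Foxo3 and Foxo1 lie on opposite sides of 0 in the WT response (1.04 and -0.61) and in starved RA minus starved WT (-0.77 and 0.41), and no point is filled for RA minus WT in normal medium.

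Because Foxo1 and Foxo3 were measured in the same libraries, their ratio does not depend on the library total. Foxo3 over Foxo1 was 1.504 and 1.55 in the WT controls, against 5.55 and 4.75 in starved WT. In RA it was 1.80 and 1.59 in normal medium and 2.02 and 2.28 under starvation. Starved WT thus lay above every other library, and starved RA lay slightly above the RA controls. Foxo3 over Foxo4 was 2.78 and 2.20 in starved WT, 1.81 and 1.71 in starved RA and 1.27 to 1.36 in normal medium. Foxo4 over Foxo1 was 1.99 and 2.16 in starved WT and 1.11 to 1.36 in the other groups.

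**Figure D3:**
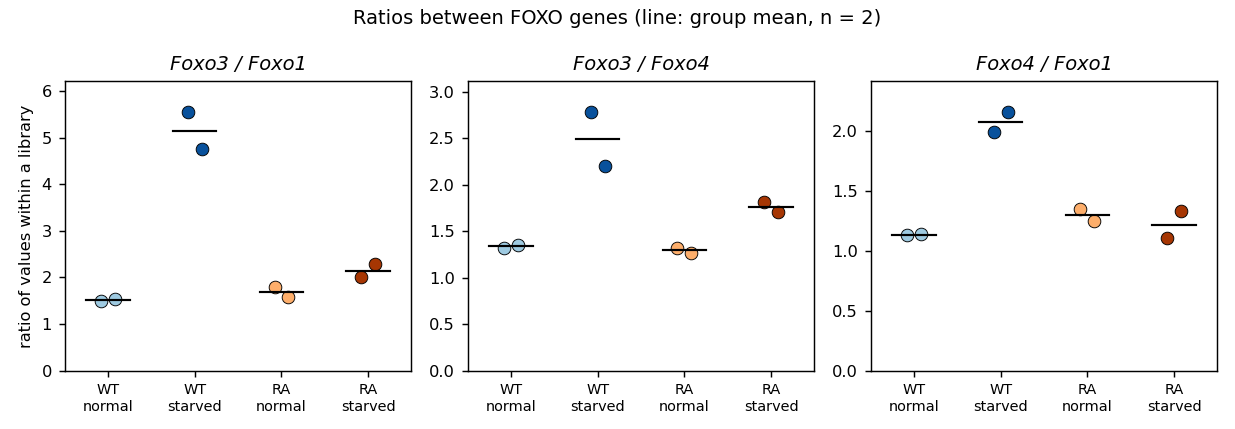
Ratios of the values of 2 FOXO genes within each library (vertical axis, from 0) in the 4 groups (horizontal axis), with 1 point per library and a line at the group mean. Foxo3 over Foxo1 reaches 4.75 and 5.55 in starved WT and stays at or below 2.28 in the other groups.

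Levels of different genes are comparable only per length. With the longest annotated transcript of each gene (8665 bases for Foxo1, 6848 for Foxo3, 3162 for Foxo4 and 2615 for Foxo6), Foxo4 led in WT in normal medium with 4.17 and 3.97 CPM per kilobase, before Foxo3 with 2.55 and 2.48 and Foxo1 with 1.34 and 1.27. The same order held in RA in normal medium and in starved RA. In starved WT, Foxo3 stood at 5.62 and 5.02 and Foxo4 at 4.37 and 4.95, so these genes were not separated beyond the spread of the libraries. Foxo6 was last in every library, between 0.0629 and 0.347. The order of the first 2 depended on the length: with the shorter Foxo3 transcript of 2889 bases, Foxo3 was first in every library, with 5.61 to 13.3 CPM per kilobase. Which transcripts the cells used was not measured.

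Genes whose levels followed a member most closely over the 8 libraries were taken by Pearson's correlation on the log2 scale among genes with a mean value of at least 10. With starvation and genotype both in the 8 libraries, high values arise for many genes, and they are given as a description. For Foxo3 these included Gigyf2 (r = 0.998, a translation regulator) and Amotl1 (0.996, an angiomotin of cell junctions). Gigyf2 stood at 52.7 and 51.4 in WT controls, 89.6 and 86.4 in starved WT, 54.2 and 50.4 in RA controls and 58.4 and 58.9 in starved RA, so starved WT alone stood far from the rest, as for Foxo3. For Foxo1 they were Clcf1, a cytokine of the interleukin-6 family, Cdh13, a cadherin, and Lrrcc1, a centrosomal protein, each with r = 0.989. For Foxo4 the closest were Bola2 (r = 0.946), Znhit6 (0.936) and Nom1 (0.930), with lower values than for the other members.

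The rest of the forkhead family shows how usual these changes were among forkhead genes. The table had 44 forkhead rows, of which 22 passed the filter, 19 of them other than FOXO. In the WT response 8 of these 19 rose and 7 fell (median 0.039, beside 0.0049 over all tested genes), and in RA 11 rose and 3 fell (median 0.25, beside 0.013). Shares over all tested genes were 39.3% and 39.2% in WT and 35.0% and 33.7% in RA. The responses differed in 17 of the 19, beside 50.6% of all tested genes. They were more positive in RA for 9 and more negative for 8, beside 24.5% and 26.1%. Foxo3 was therefore not the only forkhead gene with a higher response in WT.

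The forkhead genes with the highest WT responses were Foxn3, a repressor tied to cell cycle checkpoints (1.37 in WT, 0.61 in RA), Foxp3, best known from regulatory T cells (1.17 and 0.47), and Foxk1, a nutrient-regulated repressor of autophagy genes (1.10 and 0.39). Foxk1 stood at 33.1 and 32.1 in WT controls and 76.0 and 67.0 in starved WT, and at 31.2 and 33.7 in RA controls and 42.2 and 43.4 in starved RA. As for Foxo3, starved RA lay between the controls and starved WT. The lowest WT responses were those of Foxm1, a driver of mitotic genes (-1.92 in WT and -1.43 in RA), Foxc2 (-1.72 and -1.03) and Foxc1 (-0.69, and -0.17 in RA, which did not pass), mesenchymal factors. Forkhead rows with high mean values, not set per length, were Foxk2, a relative of Foxk1 (0.48 in WT and 0.25 in RA), and Foxm1.

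**Figure D4:**
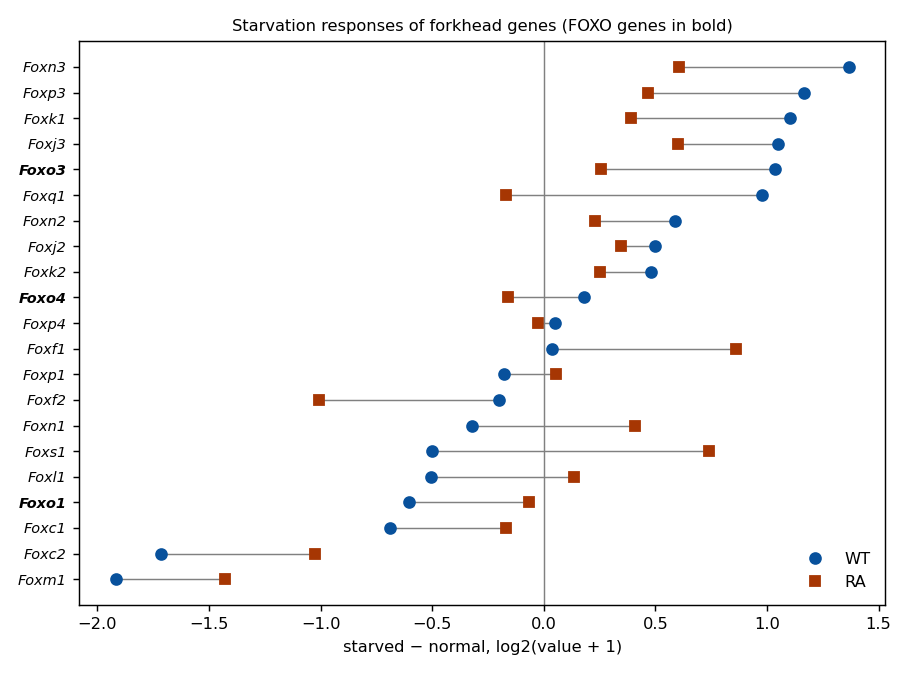
Starvation responses on the log2(value + 1) scale (horizontal axis) of 21 of the 22 forkhead genes tested (vertical axis, ordered by the WT response), with a circle for WT and a square for RA. Foxo3 is at 1.04 and 0.26, beside Foxk1 at 1.10 and 0.39, and Foxo1 is at -0.61 and -0.066.

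The genes that control FOXO proteins were a list of 51, of which 50 were tested (Sgk2 had at most 4 reads). In the WT response 16 rose and 28 fell (median -0.22, beside 0.0049 over all tested genes), and in RA 14 rose and 28 fell (median -0.14, beside 0.013). Among all tested genes 39.3% rose and 39.2% fell in WT, and 35.0% and 33.7% in RA. Of the 10 insulin, IGF and PI3K inputs, 5 rose and 5 fell in WT. Insr, the insulin receptor, rose (0.60 in WT, 0.48 in RA), and Pik3ca, a catalytic subunit of PI3K, by 0.51 and 0.35. Irs1, the receptor substrate, fell (-1.499 in WT, -1.87 in RA), and Pik3cb, another catalytic subunit, fell as well (-1.25, -0.94).

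Among the 8 tested AKT, SGK and mTORC2 genes, 2 rose and 5 fell in each genotype. Shares over all tested genes were 39.3% and 39.2% in WT and 35.0% and 33.7% in RA. Sgk1, a kinase that phosphorylates FOXO3, had the largest fall of the list in WT, and the fourth largest in RA, after Irs1, Ywhah and Skp2. It stood at 210.3 and 211.0 in WT controls and at 31.0 and 34.5 in starved WT, a difference of -2.65. In RA it went from 251.7 and 261.9 to 121.2 and 124.5, a difference of -1.06, so both genotypes fell without overlap and the RA libraries stayed higher. Sgk3 fell too (-0.91 in WT, -0.46 in RA), in RA with its call lost without the first starved library (-0.31). Rictor, a subunit of the AKT-activating complex, rose by 0.44 and 0.29, and Mtor rose by 0.33 in WT and had a difference of 0.013 in RA, not called.

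Among the kinase genes listed for FOXO control in stress (AMPK, JNK, MST and p38, 8 tested), Stk11 had the largest fall in RA. It stood at -0.57 in RA and -0.12 in WT, and the responses differed by -0.45. In WT 3 rose and 4 fell, beside 39.3% and 39.2% of all tested genes. Mapk9 (JNK2) rose (0.14 in WT, 0.27 in RA). Mapk8 (JNK1) rose in WT (0.13) and fell in RA (-0.16). Prkaa1, an AMPK catalytic subunit, fell (-0.49 in WT, -0.13 in RA, the latter lost without the first RA control, at -0.11, or the first starved RA library, at -0.086), and so did Mapk14 (p38; -0.37 and -0.49). By edgeR and DESeq2 none of the 8 rose in WT (0 higher and 4 lower), and without the first WT control Mapk9 stood at 0.082 and Mapk8 at 0.11, neither called. The calls were also lost without the second starved WT library (0.11 for Mapk9 and 0.13 for Mapk8) and, for Mapk8, without the first (0.12).

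Of the 8 genes for 14-3-3 proteins and nuclear export, which keep FOXO proteins out of the nucleus, 7 fell and 1 rose in each genotype (medians -0.78 in WT and -0.55 in RA). Beside this, 39.2% of all tested genes fell and 39.3% rose in WT, and 33.7% and 35.0% in RA. Those that fell in this group included Ywhah (-1.56 in WT, -1.24 in RA), Ywhae (-0.96, -0.80) and Xpo1, the exporter (-0.32, -0.43). The riser was Sfn, the epithelial 14-3-3 protein, by 1.55 in WT and 0.54 in RA. It was the lowest of these named genes in abundance, with a mean value of 3.06.

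Of the 6 genes for acetylation and deacetylation, 3 rose and 1 fell in each genotype. Shares over all tested genes were 39.3% and 39.2% in WT and 35.0% and 33.7% in RA. Sirt1, a deacetylase of FOXO proteins and a FOXO target, rose (1.85 in WT, 0.89 in RA), and Sirt2, another deacetylase, by 1.35 and 0.93. Kat2b, an acetyltransferase, fell (-0.59, -0.64), and Ep300 had a difference of 0.047 in WT, which did not pass. The 3 arginine methyltransferases fell in both genotypes, with -0.82 and -0.81 for Prmt1, -0.49 and -0.27 for Prmt6, and -0.18 and -0.30 for Carm1, which methylates Pontin. Of the ubiquitin genes, Mdm2 rose (0.91 in WT, 0.35 in RA), Stub1 rose by 0.31 in WT and stood at 0.035 in RA (not called), and Skp2, a ligase subunit that also marks CARM1 for breakdown, fell (-1.25, -1.22). Usp7, a deubiquitinase of FOXO4, stood at 0.057 in WT, not called. Kat5, the TIP60 acetyltransferase that works with Pontin, fell in WT (-0.34) and rose in RA (0.23), and Ruvbl2, the partner of Pontin, fell in both (-0.20, -0.16), in RA with its call lost without the second control (-0.12) or the second starved library (also -0.12).

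In normal medium, 2 of the 50 regulators were higher in RA, Ruvbl1 and Sgk1 (0.28), and 0 were lower by limma. Beside this, 6.68% of all tested genes were higher and 2.95% lower. At an unadjusted p under 0.05, 7 regulators were higher and 6 lower. By edgeR 2 were higher and 0 lower, and by DESeq2 2 and 1. The number called ranged from 0 to 7 over the alternatives, among them 1 without either WT control and 5 without the first RA control.

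A list of 58 FOXO target genes was described next, of which 52 were tested. Sirt1, Skp2, Insr, Irs2, Pik3ca and Rictor stand in both lists. The others (Fasl, Tnfsf10, Depp1, Pck1, G6pc and Trim63) had at most 18 reads in any library. In the WT response 31 rose and 15 fell (median 0.42, beside 0.0049 over all tested genes), and in RA 28 rose and 13 fell (median 0.28, beside 0.013). Shares over all tested genes were 39.3% and 39.2% in WT and 35.0% and 33.7% in RA. For the interaction 14 were more positive in RA and 18 more negative (median -0.049, beside -0.011). These counts pool 6 genes that FOXO factors repress with 46 that they activate. Of the 46 activated targets, 30 rose and 10 fell in WT (median 0.49), and 27 rose and 9 fell in RA (median 0.31). Their responses were more positive in RA for 11 and more negative for 18 (median -0.15), beside 24.5% and 26.1% of all genes. The list holds genes to which the study came by way of these libraries, so such counts are not independent evidence.

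Of the 16 tested targets for autophagy and atrophy, 14 rose and 0 fell in WT (0 also at an unadjusted p under 0.05, by edgeR and by DESeq2), with a median of 0.91. Among all tested genes 39.3% rose and 39.2% fell in WT. In RA 13 rose and 1, Fbxo30, fell (median 0.45), beside 35.0% and 33.7%. The response was more negative in RA for 11 and more positive for 0 (median -0.45), beside 26.1% and 24.5% of all tested genes. The 0 also held at an unadjusted p under 0.05, by edgeR and by DESeq2. The 11 include Map1lc3b, Sirt1, Bnip3, Ctns, Atg14 and Ulk1, which the study lists among autophagy or lysosome genes found through these libraries. The counts are therefore not independent evidence of a lower response in RA. Ctns, the lysosomal cystine exporter, rose (2.99 in WT, 1.76 in RA), and Atg14, a subunit of the autophagy PI3-kinase, by 2.39 and 1.204. Fbxo31 and Atg4b were the lowest in WT, at -0.080 and 0.11, and neither passed.

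Of these genes, Map1lc3b, Sirt1, Bnip3, Ctns and Atg14 are the 5 at which the study placed its FOXO response element amplicons. The study came to them by way of these libraries, so their direction is not independent evidence. All 5 rose in both genotypes and all 5 rose less in RA by the interaction test. Among all tested genes 39.3% rose in WT and 35.0% in RA, and 26.1% had a more negative response in RA. Map1lc3b, the autophagosome marker LC3B, stood at 101.9 and 106.8 in WT controls and 222.8 and 233.1 in starved WT, against 114.8 and 116.6 in RA controls and 143.2 and 136.5 in starved RA. Sirt1 stood at 21.4 and 23.4, 84.4 and 81.9, 21.2 and 22.3, and 42.0 and 40.4 in the same order of groups. Starved RA lay between the controls and starved WT for both genes. Bnip3, a mitophagy receptor, stood at 18.7 and 20.1 in WT controls, 87.3 and 92.6 in starved WT, 18.5 and 19.2 in RA controls and 47.4 and 50.9 in starved RA. Ctns went from 8.31 and 7.98 to 70.6 and 72.7 in WT, and from 7.61 and 6.96 to 27.2 and 27.0 in RA. The same intermediate place of starved RA held for these genes and for Atg14, and it was also the place of Foxo3. It is not particular to them, as Foxk1, Sgk1 and Ccnd1 held it too. Its share among all tested genes was not counted.

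Of the 8 cell cycle arrest targets, 4 rose and 3 fell in WT, beside 39.3% and 39.2% of all tested genes. For the interaction 6 were more positive in RA and 2 more negative (median 0.35), beside 24.5% and 26.1%. Gadd45a, a stress-induced growth arrest gene, rose (3.77 in WT, 3.58 in RA), and Ccng2, a cyclin of quiescent cells, by 1.36 in WT with 0.15 in RA, not called. Ccng2 stood at 10.3 and 9.47 in WT controls and 26.6 and 27.3 in starved WT, against 9.29 and 8.64 in RA controls and 10.9 and 9.29 in starved RA. The CDK inhibitor genes of this list did not move together. Cdkn1a (p21), named after its values were seen, rose in both genotypes, from 9.87 and 10.3 to 18.4 and 22.9 in WT (0.96) and from 9.10 and 10.1 to 28.9 and 28.6 in RA (1.49). Cdkn2b and Cdkn1b, which FOXO factors are known to activate, fell in WT (-1.57 and -0.80) and in RA (-0.35 and -0.19), where the call for Cdkn1b was lost without the first starved library (-0.13). Ccng2 passed in RA without the second starved library (0.26).

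Of the 5 tested cell death targets, 4 rose in each genotype and 0 fell (0 also at an unadjusted p under 0.05, by edgeR and by DESeq2). The shares that rose among all tested genes were 39.3% in WT and 35.0% in RA, and those that fell 39.2% and 33.7%. Pmaip1 (NOXA) rose (2.70 in WT, 2.12 in RA), Bnip3 by 2.16 and 1.33, and Bbc3 (PUMA) by 0.47 and 0.71. Bcl2l11 (BIM), the FOXO3 target best known from growth factor withdrawal, had a difference of 0.15 in WT, which did not pass, but was called after quantile normalization (0.27, adjusted p = 0.00506). Of the 7 oxidative stress targets, 2 rose and 4 fell in WT. Sesn2 rose (1.69 in WT, 1.86 in RA), whereas Sesn1 fell (-1.62, -0.83), and Sesn3 fell in WT (-0.60) and stood at -0.083 in RA, not called. Cat, the catalase gene, rose by 0.17 in WT, a call lost with total-read scaling (0.096) and without the first WT control (0.12).

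Of the 11 tested targets in insulin signalling and metabolism, 7 rose and 3 fell in WT, beside 39.3% and 39.2% of all tested genes. In RA 6 rose and 3 fell, beside 35.0% and 33.7%. Klf15, a fasting-induced factor, rose (3.91 in WT, 2.82 in RA). Klhl24 stood at 5.13 and 4.60 in WT controls and 77.5 and 75.2 in starved WT, and at 5.82 and 5.64 in RA controls and 23.8 and 25.5 in starved RA, a rise of 3.72 and 1.93. Txnip, an inhibitor of glucose uptake, fell (-3.60 in WT, -3.63 in RA), and so did Pdk4, which restrains pyruvate use (-1.26, -0.40), in RA with its call lost without the first control (-0.29) or the first starved library (-0.32).

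Of the 6 genes that FOXO factors are known to repress, 5 fell and 1 rose in WT (median -1.12). Among all tested genes 39.2% fell and 39.3% rose in WT. In RA 4 of the 6 fell and 1 rose (median -0.28), beside 33.7% and 35.0%. Ccnd1 (cyclin D1) stood at 336.6 and 338.4 in WT controls and 16.5 and 14.96 in starved WT, and at 353.2 and 356.3 in RA controls and 79.9 and 81.4 in starved RA. The difference was -4.34 in WT and -2.12 in RA. Ctgf, a matrix-associated growth factor gene, fell (-2.003 in WT, -0.37 in RA), and Myc rose by 0.86 and 0.96. Ccnd2 fell by 0.15 in WT, a call lost without the first WT control (-0.099). The responses of 3 of the 6 were more positive in RA, and of 0 more negative, beside 24.5% and 26.1% of all tested genes. The 0 also held at an unadjusted p under 0.05, by edgeR and by DESeq2.

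In normal medium 14 of the 52 targets were higher in RA and 0 were lower by limma, beside 6.68% and 2.95% of all tested genes. At an unadjusted p under 0.05, 22 targets were higher and 5 lower. By edgeR 12 were higher and 2 lower, and by DESeq2 12 and 0. The count of 14 ranged from 8 to 17 over the alternatives, and was 9 without the first WT control or the second RA control. Over all genes 69.4% of the calls in this comparison were higher in RA as deposited and 40.5% after scaling to total reads.

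**Figure D5:**
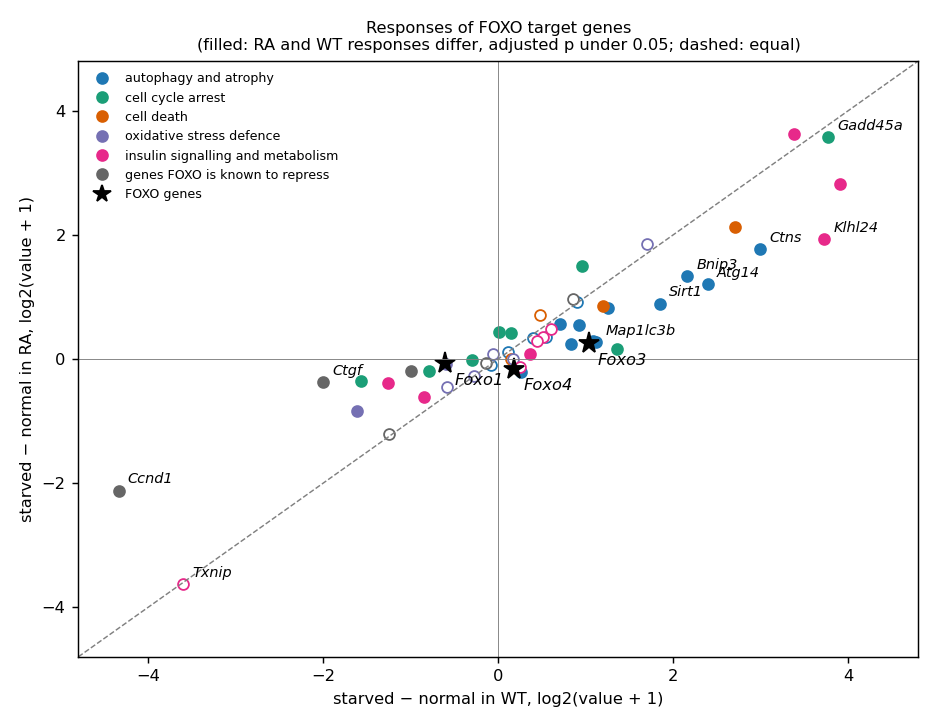
Starvation response in WT (horizontal axis) against that in RA (vertical axis), both on the log2(value + 1) scale, for the tested FOXO target genes coloured by subgroup (filled where the responses differed at an adjusted p under 0.05) and the FOXO genes (stars). Most autophagy targets lie to the right of 0 and below the dashed line of equal response (Ctns at 2.99 and 1.76), and Ccnd1 and Ctgf lie to the left of 0 and above it.

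Promoter sequence was at hand for 45 of the 58 targets. The FOXO core GTAAACA (or TGTTTAC) was in the 250 bases before the start for 5 of them, 11.1%, beside 3.54% of the 27025 genes with a window. It was there for 0 of the 5 genes of the FOXO response element amplicons. By the positions the study gives, its Map1lc3b and Ctns amplicons lie outside these windows, so the search could not meet their elements. For the other amplicons the study states no position. The 5 matches are shown because they are the FOXO core sites that can be set beside the responses. They are given with 10 bases on each side (RefSeq, GRCm38.p6, plus strand, which is the strand of each gene), and capitals mark the match.
Bbc3, chr7:16310084-16310110: ctggcgggttTGTTTACaaacaatggg
Bcl2l11, chr2:128125801-128125827: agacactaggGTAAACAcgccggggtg
Btg1, chr10:96616787-96616813: ggggtttattTGTTTACaagcagatta
Trim63, chr4:134314916-134314942: agtctgttctTGTTTACgacccccacg
Txnip, chr3:96557826-96557852: tggaggcctgGTAAACAagggccaagt
Their responses had no common direction. Bbc3 rose in both genotypes, Bcl2l11 did not pass in WT, Txnip fell in both, and Trim63, a muscle ubiquitin ligase, had at most 4 reads. Btg1, an antiproliferative gene named here for its match, stood at 0.0099 in WT (not called) and rose by 0.43 in RA. A match of letters is not a measured binding site, and sites beyond these windows were not searched.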

How the data were processed

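Polyadenylated RNA of 8 MEF libraries was prepared with the TruSeq RNA kit, sequenced as paired ends and, per the labels and the study's methods, mapped with TopHat2 (version 2.0.9) to the mouse genome mm9; the read counter, the annotation and the use of strand are not given in the sources used here. The deposited table has 49492 rows, and its values are a signal made by the authors, the read count of a gene divided by a library size scaled per sample (CPM of the scaled library size). Minus in a column name was taken for normal medium, and plus for starvation. In every library 100% of nonzero values were whole reads (tolerance 0.1 read), so reads were recovered. From 78.2% to 80.5% of counts from 1 to 9 were even, as when both mates are counted, so edgeR was also run on halved reads. In the table, 18085 rows were at 0 throughout and 26 had names turned into dates. Read totals cover counting error only.

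Groups were taken from the labels of genotype and medium. Limma (version 3.58.1, in R 4.3.3) was fitted to log2(value + 1) of the 16232 genes that reached 1 in 2 or more libraries, with 1 mean per group over all 8 libraries, its eBayes step with a trend, 2-sided tests and BH adjustment. The planned unit was CPM, and the same test served for the scaled values. Alternatives were pseudocounts of 0.1 and 5, no filter, total-read, median-ratio and quantile scaling, only the groups compared, a replicate block, no trend, the recovered reads tested by edgeR (4.0.16) and by DESeq2 (1.42.0), and leaving out each library. EdgeR without a filter was added for Foxo6 after the data were seen. EdgeR on the recovered reads called 1555, 10194, 12705, 11114 and 8096 genes in RA minus WT in normal medium and under starvation, the WT and RA responses and the interaction. The tests were checked on simulated counts.

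The members and the lists were chosen with earlier results of these data known. Named genes were the members, the study's FOXO response element genes, Skp2, Ruvbl1, Kat5 and Carm1, up to 2 genes with the highest and 2 with the lowest WT response in each list subgroup (mean value of at least 1), 9 choices among forkhead genes by response and level, and the 3 genes most correlated with each member. Btg1, Cdkn1a, Trim63, Fbxo30, Stk11, Gm20402 and Foxo6os were named after their values were seen. GENCODE M21 and RefSeq tables on GRCm38 gave lengths, positions and promoters. Some genes that the rule names are not reported here.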

Additional observations from a re-analysis of the deposited data

Results flagged for a closer look

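The response to starvation differed between RA and WT for all 3 tested FOXO genes by the limma interaction test: the RA response less the WT response was 0.54 for Foxo1, -0.78 for Foxo3 and -0.34 for Foxo4, the last with its call lost under several alternatives. With 2 libraries a group these tests rest on the spread shared by all groups.

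The same difference passed for other named genes, which is a common outcome in these data, since 50.6% of all tested genes passed. Among autophagy and cell death targets it was -1.23 for Ctns, -1.19 for Atg14, -0.96 for Sirt1, -0.85 for Map1lc3b, -0.82 for Bnip3 and -0.57 for Pmaip1. Among metabolic targets it was -1.79 for Klhl24, -1.08 for Klf15 and 0.87 for Pdk4. Among targets in arrest and stress defence it was -1.20 for Ccng2, -0.20 for Gadd45a, 1.22 for Cdkn2b, 0.61 for Cdkn1b, 0.53 for Cdkn1a, 0.42 for Btg1, 0.78 for Sesn1 and 0.52 for Sesn3. For the repressed targets Ccnd1 and Ctgf it was 2.22 and 1.63.

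Among regulators it was 1.59 for Sgk1, -1.01 for Sfn, 0.32 for Ywhah, 0.16 for Ywhae, -0.37 for Irs1, 0.30 for Pik3cb, -0.32 for Mtor, -0.29 for Mapk8, 0.36 for Prkaa1, -0.42 for Sirt2, -0.56 for Mdm2, -0.27 for Stub1, -0.16 for Usp7, 0.56 for Kat5 and 0.34 for Ruvbl1. Among forkhead genes it was -0.76 for Foxn3, -0.70 for Foxp3, -0.71 for Foxk1, -0.23 for Foxk2, 0.49 for Foxm1, 0.69 for Foxc2 and 0.52 for Foxc1.

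Some of these calls depended on a setting or on single libraries. The Mtor call was lost with no filter (adjusted p = 0.0607) and without the eBayes trend (0.0611), the Stub1 call without the trend (0.0531) and the Klf15 call by edgeR on halved reads (0.0774). With no filter the calls for Gadd45a (0.0847), Irs1 (0.0503) and Ywhae (0.112) were lost, and without the trend those for Gadd45a (0.0964) and Ywhae (0.143). The Gadd45a call was also lost with a pseudocount of 5 (0.204), total-read scaling (0.192), quantile normalization (0.0897) and edgeR on halved reads (0.0538). For Gadd45a the difference passed neither without the first RA control (-0.13) nor without the second WT control (-0.17), either starved WT library (-0.21 and -0.18) or either starved RA library (-0.21 and -0.18). For Irs1 it did not pass without the first WT control (-0.33), the first RA control (-0.30) or the second starved RA library (-0.28), and for Ywhae without either WT control (0.17 and 0.14), the first starved WT library (0.14), the first RA control (0.13) or the first starved RA library (0.10).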

How the results depend on the processing

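The calls for Foxo1 and Foxo3 under starvation, in the WT response and in the interaction held under all 20 alternatives, from -0.71 to -0.43 for Foxo1 and 0.90 to 1.11 for Foxo3 in WT. The Foxo3 response in RA fell to 0.16, and the count of called members there to 0, without the second RA replicate in normal medium, with a range from 0.16 to 0.35 (counts 0 to 1) over libraries left out. For Foxo4, starved RA minus starved WT ranged from -0.37 to -0.20 over libraries left out. The Foxo4 WT response became called with quantile normalization (0.31) and without the first starved WT replicate (0.097 to 0.26 over libraries left out). The Foxo4 interaction lost its call with no filter (-0.34), total-read scaling (-0.27), DESeq2 (-0.37) and 4 single libraries left out (range -0.42 to -0.26). In normal medium, RA minus WT changed sign without a call for Foxo3 with total-read scaling (-0.036), median-ratio scaling (-0.0063), edgeR on halved reads (-0.0021), DESeq2 (-0.0056), and from -0.084 to 0.10 over libraries left out (-0.0087 without the second WT and -0.084 without the first RA replicate), and for Foxo4 (-0.0078 to 0.12, -0.0078 without the first RA replicate). The target count there was 9 with no filter, 8 without the trend and 9 to 15 over libraries left out. Over all genes that comparison gave 1563 calls, but 650 with no filter, 590 without the trend and 559, 830 and 939 without the first WT, second WT and second RA control. The cause of these changes was not tested.

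Uncalled values near 0 also changed sign in the WT response: Ep300 (-0.026 total-read, -0.0068 quantile), Fbxo31 (0.019 quantile), Usp7 (-0.016 total-read), Ruvbl1 (-0.061 total-read, -0.027 edgeR on recovered and on halved reads, -0.011 to 0.030 over libraries left out, with -0.0035 without the second starved one) and Btg1 (-0.063 total-read, -0.052 quantile, -0.027 and -0.028 edgeR, -0.023 to 0.043 over libraries left out, with -0.021 without the second starved one). In the RA response they were Mtor (-0.079 to 0.11, with -0.040 without the first starved library) and Stub1 (-0.016 and -0.028) without single RA libraries.

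Same-numbered libraries correlated between -0.0076 and 0.16 in their deviations from group means, so the numbers were not taken to pair them. With the replicate block, Foxo3 RA minus WT under starvation was -0.77 (adjusted p = 7.49e-09), the members called were 0, 3, 2, 1 and 3 in the 5 comparisons, as without it, and no call of a member changed. Scaling moved the median of all genes by less than 0.1. The higher share of calls in the interaction was 48.4% as deposited and 58.1% after total-read scaling, and in normal medium 69.4%, 40.5%, 58.5% (median-ratio) and 52.6% (quantile).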
